A study of Mus musculus with 4 samples.

Results

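The cells described here are the conventional CD4 T cells of periwound mouse skin, 350 of the 6443 cells that passed the quality limits in 4 single-cell libraries. A cell was taken as a member when it held at least 1 unique molecular identifier (UMI, 1 counted RNA molecule) of *Cd3d*, *Cd3e* or *Cd3g*, at least 1 of the αβ receptor genes *Trac*, *Trbc1* or *Trbc2*, at least 1 of *Cd4* or *Cd40lg*, and none of *Foxp3*, *Trdc*, *Cd8a*, *Cd8b1* or *C1qa*. Control 1, Control 2, hucMSC-Exo 1 and hucMSC-Exo 2 contributed 40, 135, 80 and 95 members. Each library came from 1 mouse of the C57/BL6j strain, 6 weeks of age, sampled on day 7 after a punch wound of 8 mm. The hucMSC-Exo mice had received 100 µg of exosomes from human umbilical cord mesenchymal stem cells, injected at 4 sites around the wound every 48 hours, and the Control mice phosphate-buffered saline on the same plan. The groups are those of the sample titles. Lettering used elsewhere in the deposit would group the mice differently, and a treatment direction holds only if the titles are right. Skin is the source given by the cell type label, the protocol and the methods, although the tissue label lists segments of gut. Values for several libraries are always given in the order in which the 4 libraries are named above.

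CD4 T cells recognise peptides on MHC class II molecules and act mainly by helping other cells. CD40 ligand, the product of *Cd40lg*, activates dendritic cells, macrophages and B cells, and secreted cytokines direct neutrophils, eosinophils or macrophages depending on the helper program. In healing skin, helper programs built around interferon-γ, around IL-4, IL-5 and IL-13, and around IL-17 have each been described, beside the *Foxp3* regulatory T cells that restrain them.

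Among the members, 157 entered with *Cd4* UMIs only, 84 with both helper genes and 109 with *Cd40lg* UMIs alone. The evidence for a helper identity was thin in many cells, since 140 members held exactly 1 helper UMI, 94 held 2 and 116 held 3 or more, up to 13. Just outside the limit, 296 cells met every other condition but held no helper UMI. Their median depth was 3818.5 UMIs per cell, against 4706 in the members. Levels are in CPM, for which all cells of a set were summed and the sum was scaled to a fixed total. These outside cells held 201 CPM of *Cd28* and 109 of *Tnfsf8*, and the members held 388 and 391. *Icos* was at 958 CPM outside and 1196 inside, and *Lef1* at 28.1 and 31.9. A further 203 helper T cells were left out by the excluded genes, 134 of them through *Foxp3*, and 45 of the 203 through a single UMI.

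The label was compared with genes that the rule did not use, *Cd28* and *Tnfsf8*, which had been chosen as markers with earlier results of these cells known and are given as a description. *Cd28*, the main costimulatory receptor of T cells, had a UMI in 248 of the 350 members, and its level was 462, 377, 376 and 378 CPM in the 4 libraries. *Tnfsf8* (chromosome 4, 63831308 to 63861347 of mm10, minus strand), which encodes CD30 ligand, had a UMI in 172 members at 322, 425, 379 and 380 CPM. Every mouse held both genes at 322 CPM or more. After each cell was thinned to 1000 UMIs, 31.2% of members held *Cd28* and 24.6% *Tnfsf8* (before thinning 70.9% and 49.1%, median 4706 UMIs). Neutrophils, which should lack both and had a median of 2151 UMIs, showed 0% and 0.129% after thinning. Their rule left out cells with UMIs of CD3 or αβ receptor genes, so neutrophils with stray T cell RNA were partly removed beforehand. CD8 αβ T cells held 343, 483, 389 and 316 CPM of *Cd28*, a range that overlaps that of the members.

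Genes of other cells were also present. The neutrophil list of 10 genes summed to 9.34, 1366, 350 and 1661 CPM in the members of the 4 libraries, with *Ly6g* at 0 in each. The class II list of 9 genes summed to 163, 421, 606 and 66.0 CPM, and the keratinocyte list of 10 genes to 1672, 1009, 2261 and 1126 CPM. The 8 mast cell and basophil genes summed to at most 9.70 CPM. At least 1 UMI of *S100a8* or *S100a9* was found in 85 members, and at least 1 of the γδ T cell list in 65, although *Trdc* was absent by rule. Of the members, 36 were among the highest 10% of doublet scores. Their depth was 5144, 4949, 3845 and 4882 median UMIs per cell, and their sums held 214074, 721652, 334756 and 515312 UMIs, so the values of Control 1 rest on the fewest molecules. Only 1 member carried a barcode found in another library.

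**Figure D1:**
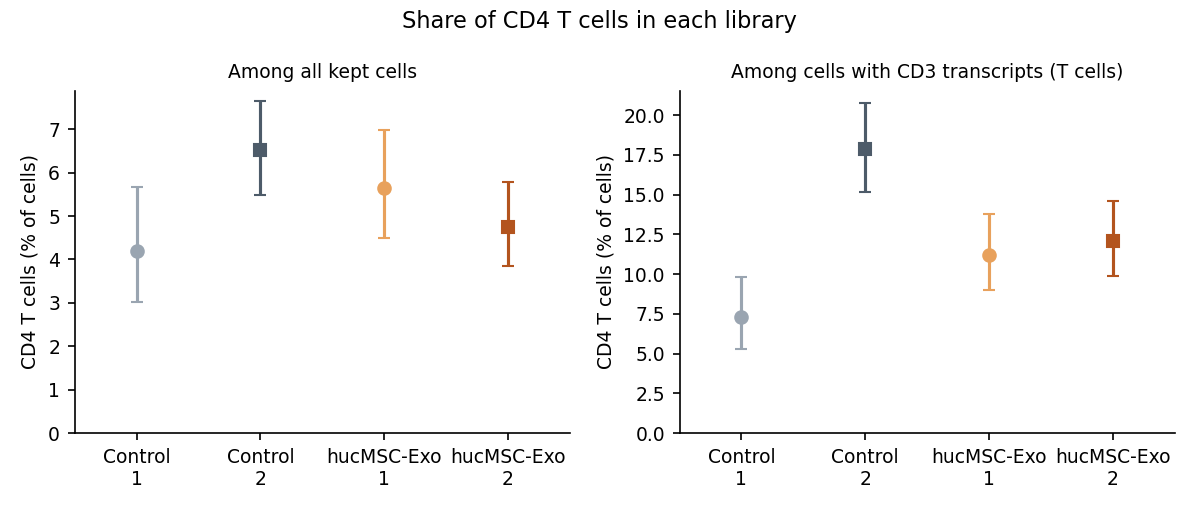
Percentage of kept cells (left) and of T cells (right) that were CD4 T cells in each of the 4 libraries, with 95% exact binomial intervals that cover counting error only. Control 1 has the lowest and Control 2 the highest share in both panels, and both hucMSC-Exo libraries lie between them.

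CD4 T cells made up a similar share of the cells in both groups, and the widest gap lay between the 2 Control mice. Among all kept cells they were 4.20% in Control 1 (95% exact interval 3.02 to 5.68%), 6.51% in Control 2 (5.49 to 7.66%), 5.65% in hucMSC-Exo 1 (4.50 to 6.98%) and 4.75% in hucMSC-Exo 2 (3.86 to 5.77%). The group means were 5.36% ± 1.63 in Control and 5.2% ± 0.638 in hucMSC-Exo (SD, n = 2 each; exact two-sided permutation p = 1). Among T cells the shares were 7.33, 17.9, 11.2 and 12.1% in the same order, with means of 12.6% ± 7.45 and 11.7% ± 0.623 (exact permutation p = 1). A design of 2 against 2 cannot give a p below 0.333. The difference among kept cells turned from -0.157 to 0.0963 percentage points when cells with more than 3000 genes were kept, and it was 0.997 without Control 2 and 0.294 without hucMSC-Exo 2. Among T cells the difference of -0.915 percentage points became 4.35 without Control 2. Of the members and *Foxp3* T cells together, *Foxp3* cells made up 18.4, 25.8, 23.8 and 24.6%, again with overlapping groups.

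The helper cytokines divided a minority of the members into classes that hardly overlapped. *Il17a* or *Il17f* was found in 58 cells, *Il5*, *Il13* or *Il4* in 38 and *Ifng* in 37. Only 4 cells fell into more than 1 class, 125 into exactly 1 and 221 into none. In the neutrophil gate, 0.379% of 792 cells held an IL-17 gene and 0% held the other cytokines. That gate left out cells with UMIs of CD3 or αβ receptor genes, which may lower this background. The transcripts were concentrated in few cells, since the 5 richest cells held 71.3% of the 766 UMIs of *Il5*, *Il13* and *Il4* and 54.7% of the 644 UMIs of *Il17a* and *Il17f*.

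*Il5*, the main eosinophil growth factor, and *Il13*, which acts on epithelium and macrophages, lie on opposite sides of the same cytokine locus on chromosome 11 and were each found in 24 members, together in 13. Their upstream regions are shown because every cell with these cytokines alone held *Gata3*, whose product binds GATA motifs. The stretches are the 250 bases before each annotated start in RefSeq (GRCm38.p6), *Il5* at chr11:53720544-53720793 on the plus strand and *Il13* at chr11:53634703-53634952 on the minus strand, with the letters AGATA on either strand (TATCT on the other) in capitals.
*Il5*: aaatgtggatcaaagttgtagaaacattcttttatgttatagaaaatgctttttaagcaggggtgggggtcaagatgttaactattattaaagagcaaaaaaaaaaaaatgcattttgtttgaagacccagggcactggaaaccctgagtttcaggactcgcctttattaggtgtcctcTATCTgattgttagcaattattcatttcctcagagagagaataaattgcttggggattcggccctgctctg
*Il13*: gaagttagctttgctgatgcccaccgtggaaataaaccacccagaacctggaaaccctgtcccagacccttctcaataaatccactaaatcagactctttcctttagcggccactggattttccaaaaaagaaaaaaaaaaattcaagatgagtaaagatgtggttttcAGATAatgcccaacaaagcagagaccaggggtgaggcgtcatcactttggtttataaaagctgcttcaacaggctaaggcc
Each region holds 1 match, starting 71 bases before the start of *Il5* and 81 before that of *Il13*. The same letters occur in 26.6% of 32851 promoter windows of this length, so a match is a description of the letters and no evidence of binding.

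The cells of each single class carried different transcription factors and receptors. The 35 cells with only *Il5*, *Il13* or *Il4* all held *Gata3*, the factor of the type 2 program, at 889 CPM, against 202 CPM in the 221 cells with none of the cytokines. *Il1rl1*, the receptor for IL-33, was found in 26 of the 35 at 826 CPM, and *Areg*, an epidermal growth factor receptor ligand, in 21 at 2996 CPM. By library the 35 cells were 3, 14, 1 and 17. *Il1rl1* was held by 1, 11, 1 and 13 of them and *Areg* by 0, 8, 0 and 13, so both levels rest mainly on Control 2 and hucMSC-Exo 2. *Ccr6* and *Tbx21* were at 0 in these cells, where 3 UMIs would have been 11.8 CPM. The type 2 cells were also the deepest, with a median of 6997 UMIs per cell against 4432 in the cells without cytokine.

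The 56 cells with only *Il17a* or *Il17f* all held *Rora*, a nuclear receptor of the IL-17 program. Its level was 1695 CPM, against 1063 CPM in the cells without cytokine. Of the 221 cells without cytokine, 185 also held *Rora*. Their median depth was 4432 UMIs per cell, against 5173.5 in the 56 cells. *Ccr6*, a chemokine receptor of IL-17 producing cells, was found in 18 of the 56 and *Tmem176b* in 31, while *Il1rl1* and *Tbx21* were at 0. Of all 58 cells with an IL-17 gene, 36 had entered with *Cd4* and 22 with *Cd40lg* alone, and 21 also held a UMI of the γδ list. In the 34 cells with only *Ifng*, *Tbx21*, the factor of the interferon-γ program, was found in 9 cells at 72.4 CPM. The granule gene *Nkg7* was found in 20 at 480 CPM. The cells without cytokine held these 2 genes at 17.4 and 183 CPM. By library the 34 cells were 12, 11, 4 and 7. Of these, 4, 5, 0 and 0 held *Tbx21*, and 10, 7, 0 and 3 held *Nkg7*. These levels describe cells chosen by their own transcripts and were not tested.

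**Figure D2:**
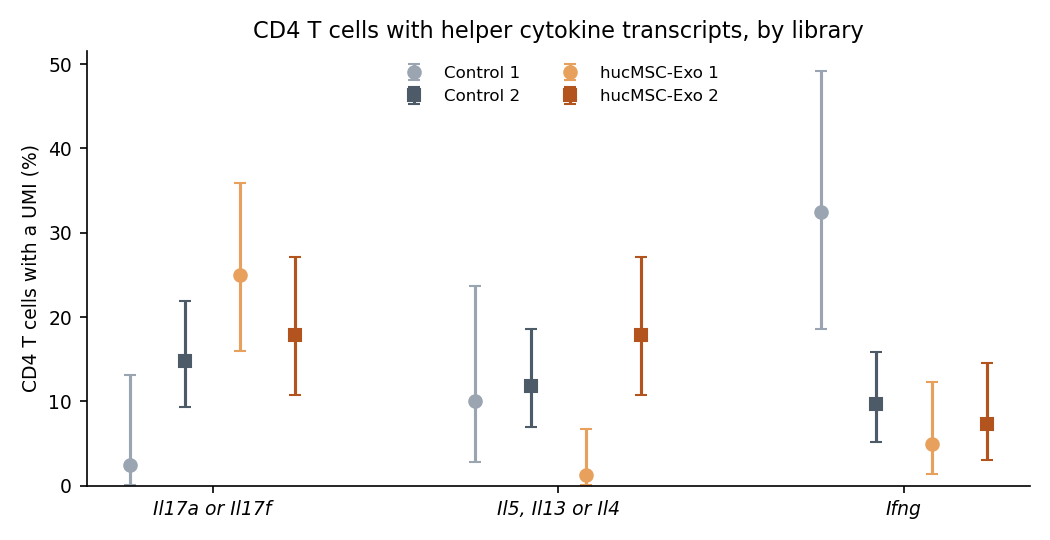
Percentage of CD4 T cells in each library with a UMI of *Il17a* or *Il17f*, of *Il5*, *Il13* or *Il4*, and of *Ifng*, with 95% exact binomial intervals. Control 1 stands low for IL-17 and high for *Ifng*, and hucMSC-Exo 1 stands low for the type 2 cytokines.

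Each class was uneven between mice of the same group. IL-17 cells were 1 of 40 members in Control 1 (2.50%), 20 of 135 in Control 2 (14.8%), 20 of 80 in hucMSC-Exo 1 (25.0%) and 17 of 95 in hucMSC-Exo 2 (17.9%). Type 2 cells were 4, 16, 1 and 17 cells (10.0, 11.9, 1.25 and 17.9%). *Ifng* cells were 13, 13, 4 and 7 cells (32.5, 9.63, 5.0 and 7.37%). The groups did not overlap for IL-17 and *Ifng* and overlapped for the type 2 cytokines. For scale, the groups also did not overlap in CPM for 1439 of the 4577 genes tested in these cells (31.4%). After thinning to 1000 UMIs, IL-17 cells were 2.50, 9.63, 10.0 and 13.8% of members and *Ifng* cells 10.0, 4.44, 1.25 and 4.26%, with 1 shallower cell of hucMSC-Exo 2 left out. Without cells holding a γδ-list UMI, the IL-17 shares were 2.78, 8.33, 21.9 and 16.9%. The 60 IL-17 UMIs of Control 1 came from its single cell. With 2 mice a group these shares were not tested.

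Other helper products were found in 12 to 82 members. *Areg* was found in 82 cells, *Il10*, an inhibitory cytokine, in 22, *Csf2*, a growth factor of myeloid cells, in 21, *Xcl1*, a chemokine for cross-presenting dendritic cells, in 18 and *Il22*, which acts on keratinocytes, in 12. *Il10* overlapped the type 2 cytokines in 12 of its 22 cells, and *Il22* overlapped the IL-17 genes in 8 of 12. Of the 7 genes of the follicular helper list, 6 had a UMI in the members, and the list summed to 196, 159, 143 and 146 CPM. *Sh2d1a*, an adaptor of receptors between T and B cells, was found in 81 members and *Bcl6*, the factor of follicular helper cells, in 55, while *Il21*, a cytokine that acts on B cells, had 1 UMI and *Cxcr5*, the receptor that leads cells to follicles, had 0. The ligand genes were spread more evenly, with 78 members holding both *Tnfsf8* and *Tnfsf11* among 172 with the first and 105 with the second, and no cell held more than 25 UMIs of *Tnfsf8*.

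**Figure D3:**
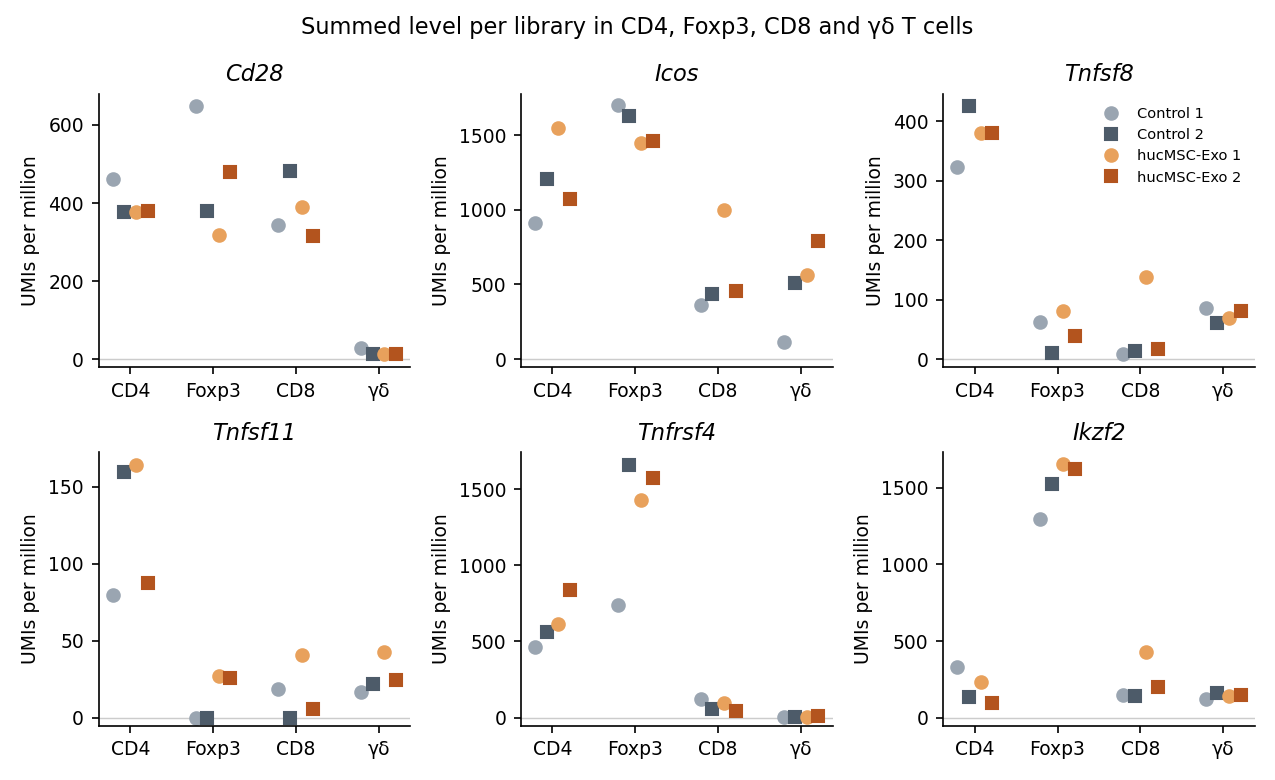
CPM of 6 genes summed per library in CD4, *Foxp3*, CD8 αβ and γδ T cells, each point 1 library. *Tnfsf8* and *Tnfsf11* are highest in CD4 T cells in every library, and *Ikzf2* is highest in *Foxp3* T cells.

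Against *Foxp3* T cells, the CD4 T cells were higher in several helper cytokines and in 3 of 4 tested ligands of the TNF family, and lower in the regulatory list. This comparison rests on 3 libraries, since Control 1 held only 9 *Foxp3* T cells and was left out. In edgeR's quasi-likelihood test with the library as a block, 484 of 4424 genes differed (10.9%), 262 higher (5.92%) and 222 lower (5.02%) in CD4 T cells. *Tnfsf8* was at 425, 379 and 380 CPM in the 3 libraries used, against 10.0, 81.4 and 38.3 in *Foxp3* T cells. As a chosen marker it is described without a test, although the counts of TNF ligands, here and in the other comparisons, include it. *Tnfsf11*, which encodes RANKL (chromosome 14, 78277445 to 78308043, minus strand), was at 159, 164 and 87.3 CPM against 0, 27.1 and 25.5 (log2 difference 3.47 ± 0.49 SE, adjusted p = 4.23e-05). The ranges of the 2 cell types did not overlap for either gene. With 1 library left out at a time, the difference of *Tnfsf11* ranged from 2.35 without Control 2 to 4.22 without hucMSC-Exo 2, and DESeq2 did not call it (adjusted p = 0.171). Of the other ligands, *Fasl*, which encodes the death ligand of Fas, was higher (2.68 ± 0.64, adjusted p = 0.00631) and *Ltb*, which encodes lymphotoxin β, was lower (-0.67 ± 0.18, adjusted p = 0.0155).

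Of the 6 tested genes of the type 2 list, *Il5* and *Il13* were higher and *Il1rl1* was lower in the members (-1.36 ± 0.26, adjusted p = 0.00120, 0.315 in DESeq2). *Il5* was at 168, 23.9 and 772 CPM in the members and had no UMI in *Foxp3* T cells, which makes it at least 67.5-fold higher against 3 UMIs over the group. The fits without Control 2 or without hucMSC-Exo 2 did not test it, because too few counts remained. *Il13* had 209 UMIs in the members and 1 in *Foxp3* T cells, a ratio of summed CPM of 80.3 with a 95% counting interval of 14.3 to 3189. DESeq2 called neither (adjusted p = 0.199 and 0.992). *Il17f*, from the IL-17 list, was at 180, 161 and 413 CPM against 0, 6.78 and 38.3 (log2 difference 4.52 ± 0.41, adjusted p = 1.51e-07), and 5 of the 10 tested genes of that list were higher and 2 lower. Without hucMSC-Exo 2 its difference was 6.20, and without Control 2 it was 3.84.

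The regulatory list went the other way, with 10 of its 11 tested genes lower in the members and a median log2 difference of -2.05, against 0.0158 over all genes tested. *Ikzf2*, which encodes the factor Helios, was at 134, 233 and 95.1 CPM in the members and at 1527, 1655 and 1620 in *Foxp3* T cells (-3.29 ± 0.21, adjusted p = 3.42e-09). *Ctla4*, the inhibitory receptor that competes with CD28, was at 255, 185 and 314 CPM against 1113, 1139 and 1244 (-2.05 ± 0.19, adjusted p = 2.38e-07). The TNF receptor genes *Tnfrsf9* and *Tnfrsf4* were lower, with log2 differences of -1.82 and -1.06 (adjusted p = 2.93e-07 and 0.000367). *Tnfrsf18* was lower by a log2 difference of -0.89 (adjusted p = 0.00348) and was no longer called without Control 2, where the adjusted p was 0.173, or with DESeq2. *Klrg1*, a receptor of late effector cells, was at 18.0, 41.8 and 19.4 CPM against 330, 176 and 313 (-3.34 ± 0.32, adjusted p = 2.38e-07), and *Tcf7*, a factor of memory and naive T cells, was higher at 158, 146 and 103 CPM against 10.0, 13.6 and 25.5 (3.33 ± 0.39, adjusted p = 3.54e-06). Of the effector and residence list, 5 of 16 tested genes were higher and 4 lower. Examples were *Cxcr6*, which was higher (1.87 ± 0.21, adjusted p = 1.88e-06), and *Itgae*, an integrin that binds epithelial cadherin, which was lower (-1.68 ± 0.21, adjusted p = 8.06e-06).

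*Icos*, the inducible costimulator, was at 1204, 1547 and 1073 CPM in the members and at 1627, 1444 and 1461 in *Foxp3* T cells, and the 2 ranges overlapped (log2 difference -0.09 ± 0.17, adjusted p = 0.80). Genes of other cells moved with this comparison, since all 3 tested genes of the neutrophil list and 3 of 4 tested class II genes were higher in the members, and *Igkc*, an immunoglobulin gene, was lower, with 2 UMIs in the members and 75 in *Foxp3* T cells (a ratio of 97.5 to the latter, counting interval 26.1 to 820). *S100a9* was at 866, 179 and 811 CPM in the members and at 33.3, 20.3 and 842 in *Foxp3* T cells (2.03 ± 0.50, adjusted p = 0.00949). Its difference was 0.81 and no longer called without Control 2, 4.52 without hucMSC-Exo 2, and -0.01 without cells that held γδ-list UMIs. The part of these cells in the counts was not tested directly, but without members and *Foxp3* T cells that held *S100a8* or *S100a9* UMIs the test called 351 of 3600 genes. Without Control 2 it called 248 of 3360.

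Against CD8 αβ T cells, CD4 T cells were higher in type 2 and IL-17 genes and in 4 of 5 tested TNF receptors, and lower in cytotoxic genes. In the 4 libraries 223 of 3468 genes differed (6.43%), 129 higher (3.72%) and 94 lower (2.71%). All 6 tested genes of the type 2 list were higher, with a median log2 difference of 3.49 against -0.02 over all genes tested. *Il1rl1* was at 46.7, 184, 167 and 458 CPM in the members and at 18.5, 22.8, 24.3 and 28.2 in CD8 T cells (3.15 ± 0.36, adjusted p = 7.79e-05). *Areg* was at 182, 852, 239 and 1556 CPM against 55.6, 41.0, 97.1 and 11.3 (3.72 ± 0.55, adjusted p = 0.000812), and DESeq2 gave an adjusted p of 0.0883. Its difference was 4.61 without hucMSC-Exo 1 and 2.67 without hucMSC-Exo 2. The members were higher in each library for both genes. *Il5* had 528 UMIs in the members and 1 in CD8 T cells, a ratio of summed CPM of 186 with a 95% counting interval of 33.2 to 7348. The interval covers counting error only and not the spread between cells or mice. *Il5*, *Il13* and *Il4* together had 8, 200, 8 and 550 UMIs in the members of the 4 libraries, and 1 cell held 238 of them. *Gata3* was higher by 1.44 ± 0.36 (adjusted p = 0.0254), and this call was lost without Control 2, without hucMSC-Exo 1 and without hucMSC-Exo 2 (adjusted p = 0.112, 0.0726 and 0.143).

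Of the costimulation list, 3 of 8 tested genes were higher than in CD8 T cells, 1, *Cd27*, was lower and 4 were not called. Of the TNF ligands, 2 of 6 were higher, *Fasl* was lower and 3 were not called. *Tnfrsf4*, which encodes OX40, was at 462, 563, 615 and 836 CPM in the members and at 120, 54.7, 97.1 and 45.2 in CD8 T cells (3.02 ± 0.28, adjusted p = 1.89e-05). *Icos* was at 911, 1204, 1547 and 1073 CPM against 361, 437, 996 and 457 (1.12 ± 0.14, adjusted p = 0.000239), and *Ctla4* was higher by 1.19 ± 0.22 (adjusted p = 0.00434). CD8 T cells held 9.27, 13.7, 138 and 16.9 CPM of *Tnfsf8*, each below its level in the members. *Tnfsf11* was higher by 3.20 ± 0.51 (adjusted p = 0.00135), by 4.13 without hucMSC-Exo 1 and by 2.43 without Control 2. Of the IL-17 list, 6 of 7 tested genes were higher. The call of *Il17f* was lost in DESeq2, without Control 2 and without hucMSC-Exo 2 (adjusted p = 0.283, 0.122 and 0.145). Its difference ranged from 2.04 to 9.40 with 1 library left out. *Rora* was at 752, 1061, 1476 and 869 CPM against 315, 310, 648 and 339 (1.37 ± 0.14, adjusted p = 3.04e-05).

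Among cytotoxic genes, 8 of 9 tested were lower. *Nkg7* was at 378, 187, 114 and 120 CPM in the members and at 1029, 1025, 745 and 1219 in CD8 T cells (-2.51 ± 0.23, adjusted p = 1.85e-05). *Ccl5*, a chemokine of cytotoxic and memory T cells, was at 248, 144, 137 and 69.9 CPM against 4236, 6534, 2299 and 5712 (-5.09 ± 0.27, adjusted p = 4.17e-08). *Gzmk*, a granzyme gene, had 2 UMIs in the members and 54 in CD8 T cells, a ratio of 76.8 to the latter with a counting interval of 20.2 to 650. Genes of other cells moved here too. The macrophage and monocyte list of 14 genes summed to 523, 396, 397 and 567 CPM in the members and to 1817, 1107, 1206 and 1405 in CD8 T cells, with 2 of its 5 tested genes, *Lyz2* and *Ly6c2*, lower. Of the neutrophil list *Il1b* was higher, and the keratin gene *Krt1* was lower. Their part in the result was not tested. The count of genes called was 72 of 2943 tested without Control 2, 128 of 3205 without hucMSC-Exo 1 and 111 of 3276 without hucMSC-Exo 2. It was 112 of 2878 without cells holding *S100a8* or *S100a9* UMIs, 143 of 14198 with DESeq2 and 68 of 2701 without the library as a block.

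**Figure D4:**
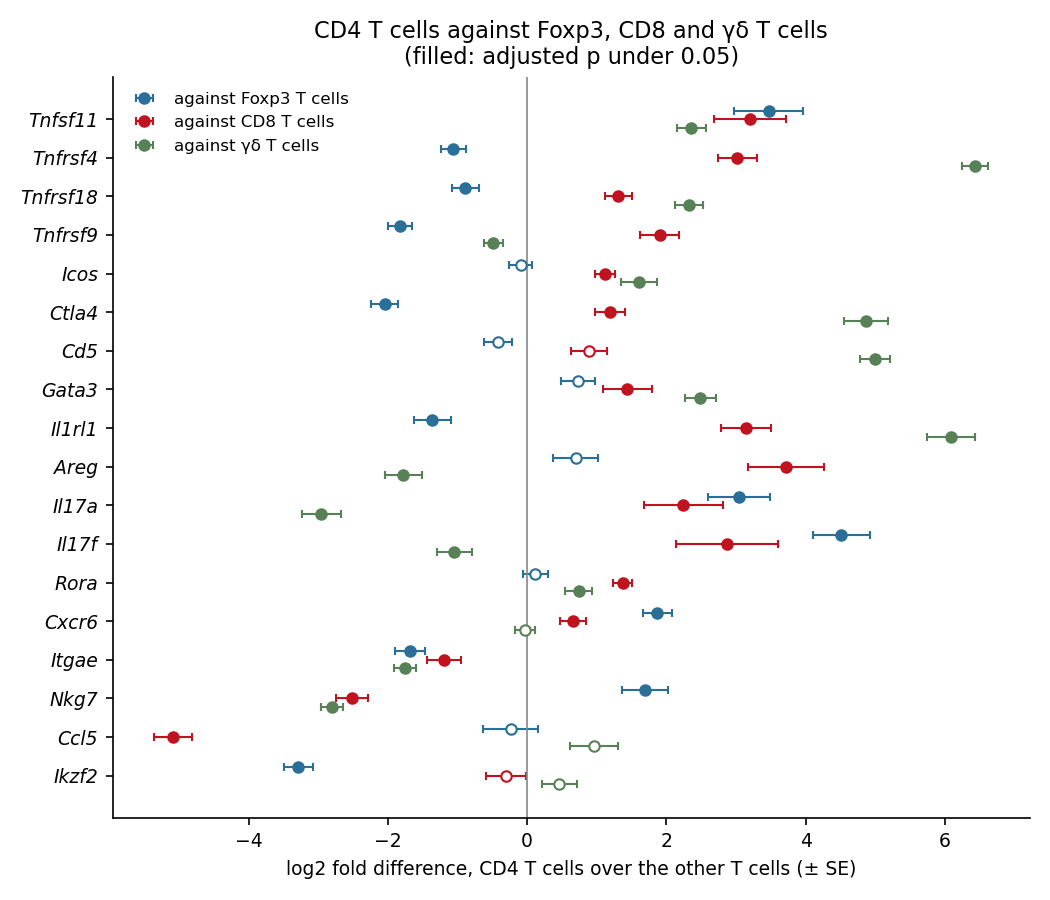
Log2 fold difference between CD4 T cells and *Foxp3*, CD8 and γδ T cells for 18 genes, with standard errors (edgeR, library as a block, filled points for adjusted p under 0.05). *Tnfsf11* is to the right of 0 in all 3 comparisons, while *Tnfrsf4* is left of 0 against *Foxp3* T cells and to the right against the other two.

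Against γδ T cells, the most numerous T cells of these libraries with 1631 cells, CD4 T cells were higher in 7 of 11 costimulation genes and in 7 of 10 genes of the naive and central memory list, and lower in *Il17a* and in 11 of 16 immediate early and heat shock genes. The test called 1939 of 8753 genes (22.2%), 875 higher (10.0%) and 1064 lower (12.2%). The sums of γδ T cells were deeper, with 1577611 to 2146402 UMIs per library. In the costimulation list, which counts the chosen marker *Cd28*, 1 gene was lower, and the median was a log2 difference of 2.30 against 0.0027 over all genes tested. *Ctla4* was at 257, 255, 185 and 314 CPM in the members and at 0.634, 7.55, 13.3 and 16.3 in γδ T cells (4.87 ± 0.32, adjusted p = 2.71e-09). *Tnfrsf4* was at 7.60, 5.04, 5.70 and 13.05 CPM in γδ T cells (6.43 ± 0.19, adjusted p = 9.37e-14). *Cd28*, named here as a chosen marker, was at 27.9, 13.8, 13.9 and 13.5 CPM in γδ T cells. No library of either cell type overlapped for these 3 genes.

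*Cd5* and *Cd6*, surface receptors that tune T cell receptor signalling, were higher by 4.99 ± 0.21 and 4.97 ± 0.27 (adjusted p = 1.58e-11 and 3.67e-10). *Cd247*, the ζ chain of the receptor complex, was lower (-1.90 ± 0.17, adjusted p = 1.11e-07), so the signalling list had 6 tested genes higher and 1 lower of 11. The 7 higher genes of the naive and central memory list included *Ccr7*, *Il7r* and *Klf2*, and none was lower. *S1pr1*, the receptor that guides T cells out of tissue, was at 74.7, 80.4, 140 and 118 CPM against 2.53, 8.18, 5.07 and 10.2 (4.05 ± 0.26, adjusted p = 2.71e-09). *Lef1*, a factor of naive T cells, was at 46.7, 34.6, 23.9 and 27.2 CPM against 1.27, 5.67, 0.634 and 3.73 (3.56 ± 0.47, adjusted p = 1.22e-05).

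The cytokines went in both directions. *Il17a* was at 117, 83.1, 92.6 and 186 CPM in the members and at 235, 1224, 922 and 1814 in γδ T cells. It was lower in 4 of 4 libraries (-2.95 ± 0.28, adjusted p = 3.46e-07), although the members' value in Control 1 came from 1 cell. *Areg* was also lower (-1.78 ± 0.27, adjusted p = 6.44e-05), although it was higher than in CD8 T cells. *Il5* was at 4.67, 168, 23.9 and 772 CPM against 0, 0, 0.634 and 2.80 (8.10 ± 0.37, adjusted p = 1.58e-11). *Ifng* was at 229, 33.3, 17.9 and 15.5 CPM against 0, 4.41, 1.90 and 6.52 (3.99 ± 0.67, adjusted p = 0.000168), with a difference of 2.43 without Control 1, 5.16 without hucMSC-Exo 2, and an adjusted p of 0.22 in DESeq2. *Il1rl1* and *Gata3* were higher by 6.09 ± 0.34 and 2.49 ± 0.22 (adjusted p = 3.67e-10 and 1.26e-07). *Tnfsf11* was higher by 2.36 ± 0.21 (adjusted p = 1.10e-07), as were *Fasl* and, by its levels alone, *Tnfsf8*, which γδ T cells held at 86.2, 61.1, 68.5 and 81.5 CPM. *Tnf* was lower and the other 4 tested TNF ligands were not called.

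Of the immediate early and heat shock list, 11 of 16 genes were lower and none was higher, among them *Fos* at 121, 180, 227 and 184 CPM against 1096, 1001, 976 and 624 (-2.17 ± 0.17, adjusted p = 2.67e-08). All 11 tested genes of the γδ list were lower. *Cntn1*, a cell adhesion gene, had 0 UMIs in the members and 1059 in γδ T cells, at least 91.5-fold lower. Of the neutrophil list, *S100a8* and *S100a9* were higher in the members, and without cells holding these UMIs 1661 of 7667 genes were called. Without Control 2 the count was 1262 of 7997, and with DESeq2 it was 1283 of 16660. The 3 comparisons share the same members, so their values are given side by side.

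Within the members, cells that entered with *Cd4* differed from those that entered with *Cd40lg* alone, and both sets held genes of other cells. A UMI of the γδ list was found in 46 of 109 *Cd40lg*-alone cells (42.2%, 95% exact interval 32.8 to 52.0%) and in 19 of 241 *Cd4* cells (7.88%, 4.81 to 12.04%). *S100a9* was at 0, 2534, 461 and 2527 CPM in *Cd40lg*-alone cells and at 6.29, 99.1, 44.2 and 19.8 in *Cd4* cells. The test called 104 of 3156 genes (3.3%), 40 higher (1.27%) and 64 lower (2.03%) in *Cd4* cells. Of the class II list, 3 of 4 tested genes, *Cd74*, *H2-Aa* and *H2-Eb1*, were higher in *Cd4* cells. The median log2 difference of that list was 2.08, against 0.0037 over all genes tested. *Cd74* was not called in 4 of the alternative settings. *Ctla4* was at 302, 330, 243 and 400 CPM in *Cd4* cells against 127, 92.4, 64.5 and 129 (1.64 ± 0.22, adjusted p = 0.000170). *Tnfrsf4* was at 534, 716, 765 and 978 CPM against 254, 229, 304 and 529 (1.19 ± 0.17, adjusted p = 0.000376). Both were higher in each of the 4 libraries.

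Lower in *Cd4* cells were *Blk*, a kinase also found in IL-17 producing γδ T cells, with 1 UMI against 52 (a ratio of 116 to the latter, counting interval 19.9 to 4660), and *Zbtb16*, the factor of innate-like T cells, with 4 against 54 (-4.68 ± 0.63, adjusted p = 0.000159). *Zbtb16* was at 0, 0, 8.84 and 5.67 CPM in *Cd4* cells against 18.2, 96.8, 157 and 86.1, with a difference of -4.00 without Control 2. *Penk*, the proenkephalin gene, had 89 UMIs in *Cd4* cells and 2 in the others, a ratio of summed CPM of 19.99 with a 95% counting interval of 5.37 to 168. Its 91 UMIs came from 13 cells, 30 of them from 1 cell, and its fitted log2 difference of 4.01 was 7.12 without Control 1. In *Foxp3* T cells *Penk* was at 0, 250, 414 and 459 CPM, and *Ctla4* and *Tnfrsf4* were also higher there than in the members. Of the 112 *Foxp3* T cells, 26 held a single *Foxp3* UMI. Whether regulatory cells without a counted *Foxp3* UMI entered through *Cd4* was not tested. Of the IL-17 list, 4 of 11 tested genes were lower and none higher, among them *Il22* with 8 UMIs against 62 (-3.92 ± 0.64, adjusted p = 0.00120), -5.05 without hucMSC-Exo 1 and -2.91 without hucMSC-Exo 2. Without the cells that held γδ-list UMIs, 3 libraries remained and 0 of 2224 genes were called, with 109 at an unadjusted p under 0.05. In that setting the differences of *Ctla4* and *Tnfrsf4* were 0.90 and 0.38 (adjusted p = 0.632 and 0.998). The test called 53 of 2886 genes without hucMSC-Exo 1, 54 of 3006 without hucMSC-Exo 2, 44 of 13604 with DESeq2 and 15 of 2484 without the library as a block.

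**Figure D5:**
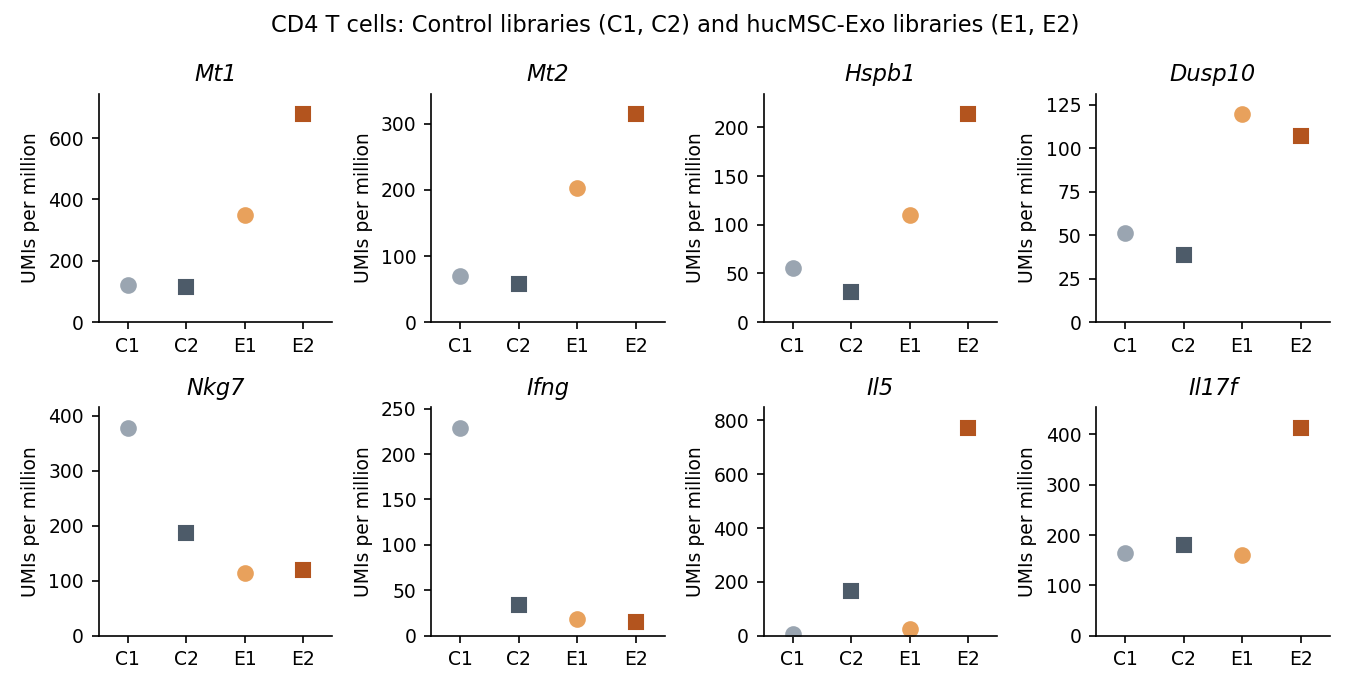
CPM of 8 genes in the CD4 T cells of each library. *Mt1*, *Mt2*, *Hspb1* and *Dusp10* are higher in both hucMSC-Exo libraries than in both Control libraries, while the highest *Ifng* value belongs to Control 1 and the highest *Il5* value to hucMSC-Exo 2.

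The comparison that the study was built for, hucMSC-Exo against Control, gave no call in the CD4 T cells. In edgeR's quasi-likelihood test 0 of 4577 genes passed an adjusted p of 0.05 (0.0%), 125 had an unadjusted p under 0.05, and DESeq2 called 1 gene, *Mt1* (adjusted p = 0.0364). The groups did not overlap in CPM for 1439 of the 4577 genes (31.4%), 760 higher (16.6%) and 679 lower (14.8%) in hucMSC-Exo. *Mt1*, *Mt2*, *Hspb1* and *Dusp10* were chosen after their values were seen. *Mt1* and *Mt2*, neighbouring metallothionein genes that bind zinc and copper (chromosome 8, 94179082 to 94180327 and 94172664 to 94173568, plus strand), had the smallest p-values. *Mt1* was at 121 and 115 CPM in Control and at 350 and 677 in hucMSC-Exo (log2 difference 2.12 ± 0.37, adjusted p = 0.885). *Mt2* was at 70.1 and 58.2 against 203 and 314 CPM (2.04 ± 0.34, adjusted p = 0.885). UMIs of *Mt1* were found in 156 members and of *Mt2* in 112, with 101 of 575 and 78 of 287 UMIs in 1 cell. *Hspb1*, a small heat shock protein gene, was at 56.1 and 30.5 against 111 and 213 CPM (2.06 ± 0.46, adjusted p = 0.999). Of its 181 UMIs 57 were in 1 cell, and its difference was 1.41 without hucMSC-Exo 2 and 1.24 without cells that held γδ-list UMIs. *Dusp10*, a phosphatase of stress kinases, was at 51.4 and 38.8 against 119 and 107 (1.36 ± 0.31, adjusted p = 0.999). Other cell types shared part of this pattern. *Hspb1* was also higher in both hucMSC-Exo libraries in *Foxp3*, CD8 and γδ T cells and in neutrophils (80.8, 89.1, 344 and 391 CPM). The same held for *Mt2* in these T cells and for *Mt1* in CD8 T cells and neutrophils. Some of these gaps were small. In *Foxp3* T cells *Hspb1* was at 46.3, 40.0, 136 and 51.0 CPM. Control 1 held only 9 such cells, where 3 UMIs are 46.3 CPM. In CD8 T cells *Mt2* was at 74.2, 63.8, 81.0 and 135 CPM. The share of all genes whose groups did not overlap was not counted in these other cell types. The groups overlapped for *Mt2* in neutrophils, for *Mt1* in *Foxp3* and γδ T cells, and for *Dusp10* in each of these cell types.

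Leaving out 1 library gave more calls, 18 without Control 1, 144 without Control 2, 30 without hucMSC-Exo 1 and 22 without hucMSC-Exo 2. With 3 libraries the group of 1 has no spread of its own and is assumed to vary like the other. *Mt1* was then called in all but the fit without hucMSC-Exo 2, where its difference was 1.5 (adjusted p = 0.072).

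Helper cytokines varied widely between mice of the same group. *Il5* was at 4.67 and 168 CPM in Control and at 23.9 and 772 in hucMSC-Exo, and the groups overlapped (2.02 ± 1.25, adjusted p = 0.999). Without hucMSC-Exo 2 its difference was -2.11, and without Control 2 it was 6.38. *Ifng* was at 229 and 33.3 against 17.9 and 15.5 CPM (-2.76 ± 0.93, adjusted p = 0.999), with a difference of -1.01 without Control 1. *Il17f* was at 163 and 180 CPM in Control and 161 and 413 in hucMSC-Exo, and the value of Control 1 came from 1 cell. In the cytotoxic list the median log2 difference over 7 tested genes was -1.25, in the type 2 list 1.05 over 6 and in the IL-17 list 0.55 over 11, against -0.02 over all genes tested, with 0 genes called in each. *Nkg7* was at 378 and 187 CPM in Control and at 114 and 120 in hucMSC-Exo (-1.25 ± 0.37, adjusted p = 0.999).

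Whether the difference between cell types itself changed with treatment was tested as an interaction. Against CD8 and γδ T cells it was called for 0 of 3468 and 0 of 8753 genes in edgeR, with 110 and 321 at an unadjusted p under 0.05. Without the filter on low counts 13 and 15 genes were called. Against *Foxp3* T cells 10 of 5364 genes were called (0.186%), 3 higher (0.0559%) and 7 lower (0.13%), in a fit with 1 residual degree of freedom and Control 2 as the only Control library, so these calls set Control 2 against the hucMSC-Exo libraries and cannot speak to treatment.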

How the data were processed

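Single-cell RNA-seq libraries of the 3′ type from 4 mice (2 Control, 2 hucMSC-Exo) were used. The authors aligned reads to mm10 and counted UMIs with Cell Ranger 6.1.2, per the labels, and deposited raw UMI counts per gene and cell. The methods state that doublets were removed and give larger cell totals than the matrices hold. Of 7178 deposited cells, 6443 passed limits of 200 to 3000 detected genes and a mitochondrial share of up to 10%. The members and gene lists were chosen with earlier results of these data known. For each cell type the UMIs of its cells in a library were added up, 10 cells being required, and the sums tested with edgeR 4.0.16 (quasi-likelihood, TMM, filterByExpr, Benjamini-Hochberg at 0.05), without the 13 genes of the gates. Cell types were compared with the library as a block, because both came from the same mouse. DESeq2 1.42.0 was an alternative. The fits were tested on simulated data. Doublet scores came from Scrublet. Gene positions follow the GENCODE annotation of GRCm38. *Foxp3* T cells met the member rule with *Foxp3* present. CD8 αβ T cells held *Cd8a* or *Cd8b1*, γδ T cells *Trdc*, and neither held the other markers. Neutrophils, used as background, held *Csf3r* and at least 5 UMIs of *S100a8* and *S100a9* but no T cell receptor genes. Genes named in the text come from 28 lists (302 genes, 298 in the files), from the 12 largest called differences in each direction with the same sign in every library, or are said to be chosen later. Because each mouse gave 1 library, the p-values of the treatment comparison measure the spread between mice. With the library as a block, those of the cell type comparisons measure how the difference within a mouse varies from mouse to mouse. Intervals (exact Clopper-Pearson, 95%) and floors of 3 UMIs cover counting error only. The main treatment test did not pair the Control and hucMSC-Exo mice by replicate number. Genes with near-identical copies (histone genes, *Hspa1a* and *Hspa1b*) may share reads.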

Additional observations from a re-analysis of the deposited data

Results flagged for a closer look

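The interaction test of the difference between CD4 and *Foxp3* T cells (edgeR, log2 of the ratio of the 2 differences, hucMSC-Exo over Control) called 10 genes. Control 2 was its only Control library, with 1 residual degree of freedom, so the calls compare that library with the hucMSC-Exo libraries and no change with treatment can be read from them. The values were 2.11 for *Ccl5*, 2.98 for *Hist1h1b* and 2.99 for *Hist1h2ap*. They were -4.15 for *Cd14*, -7.08 for *Hdc*, -3.76 for *Hspa1a*, -2.98 for *Hspa1b*, -3.98 for *S100a9*, -8.49 for *Tyrobp* and -5.87 for *Wfdc17*. *S100a9* was at 866 CPM in CD4 T cells and 33.3 in *Foxp3* T cells of Control 2, at 179 and 20.3 in hucMSC-Exo 1, and at 811 and 842 in hucMSC-Exo 2. *Hspa1a* was at 308 and 33.3 CPM, 152 and 583, and 631 and 466 in the same libraries. *Ccl5* was at 144 and 353, 137 and 6.78, and 69.9 and 108. *Hdc* and *Tyrobp* had no UMI in the *Foxp3* T cells of Control 2, so their values depend on the prior count of the fit. The part of *S100a9*, *Cd14* and the other myeloid genes in this pattern was not tested.

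Outside the kept cells, 17 cells with more than 3000 detected genes met the rule for CD4 T cells, 2 in Control 1, 9 in Control 2, 2 in hucMSC-Exo 1 and 4 in hucMSC-Exo 2.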

How the results depend on the processing

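The treatment comparison called 0 genes, 1 with DESeq2, 20 without the low-count filter and 18 to 144 with 1 library left out. With the replicate block it called 0. The correlation of the deviations of same-numbered mice was 0.0896 over 4577 genes, which does not show whether the numbers pair the mice. In the members the neutrophil list summed to 9.34 and 350 CPM in the replicate 1 libraries and to 1366 and 1661 in the replicate 2 libraries. The class II list did not follow the number (163 and 606 against 421 and 66.0 CPM). The cause was not tested. Against *Foxp3* T cells the 484 calls became 224 with DESeq2 (173 higher, 51 lower) and 248 to 540 with 1 library left out. Against CD8 T cells the 223 calls became 143 with DESeq2 (123 higher, 20 lower), 390 without the filter (288 higher, 102 lower), 68 with no replicate block, 112 without cells holding *S100a8* or *S100a9* UMIs (an alternative added after seeing the data) and 72 to 264 with 1 library left out. Against γδ T cells the 1939 calls became 1283 with DESeq2 (416 higher, 867 lower) and 1262 to 1768 with 1 library left out. Between *Cd4* and *Cd40lg*-alone cells the 104 calls became 44 with DESeq2 (24 higher, 20 lower), 15 with no replicate block, 0 without cells holding γδ genes and 53 to 110 with 1 library left out. Removing the block changed no other count by more than 1.5 times. The number of genes tested differed between settings, so these counts are not shares of the same total. The interactions against CD8 and γδ T cells gave 13 and 15 calls without the filter. The share among kept cells became 0.0963 percentage points with no upper limit on genes and -1.31 to 0.997 with 1 library left out, and that among T cells -6.18 to 4.35. Thinning to 500 UMIs gave 17.4% of members with *Cd28*, 14.9% with *Tnfsf8* and 39.7% with *Icos*, against 31.2, 24.6 and 61.0% at 1000. With 1 library left out, the treatment difference ranged from -2.11 to 6.38 for *Il5*, -8.02 to 2.10 for *Il13* and -0.16 to 1.29 for *Il17f*, each reversed without hucMSC-Exo 2. Against *Foxp3* T cells the difference of *Icos* was 0.050 in DESeq2, and that of *S100a9* was -1.38 when a *Cd4* UMI was needed and -0.011 without cells holding γδ genes. Where no value is given, the cause was not tested. Control 1, with 40 members, sets the limit on low genes.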
